A study of Mus musculus with 18 samples.

Results

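The 10 genes described here encode the enzymes and mitochondrial carriers of the urea cycle and the main enzymes that release ammonia inside liver mitochondria. They were *Nags*, *Cps1*, *Otc*, *Ass1*, *Asl*, *Arg1*, *Slc25a13*, *Slc25a15*, *Gls2* and *Glud1*, chosen by name from the pathway out of 23352 gene symbols. Liver mRNA came from 18 male C57BL6 mice aged 20 weeks and fed high-fat diet (HFD) for 12 weeks, 9 wild-type and 9 *Gpr180*KO, with 1 library per mouse. *Gpr180*KO mice lacked an exon of *Gpr180* in every tissue after CRISPR/Cas9 editing of C57BL/6J eggs, so a liver difference is not bound to hepatocytes. All groups received HFD, and no group on a normal diet was analysed here. The sample titles had 2 styles, which split the mice into series 1, with 4 of each genotype, and series 2, with 5 of each, and what the styles stand for is not stated in the labels. Values are FPKM, the reads of a gene divided by transcript length and by the mapped reads of the library. The genotypes were compared by limma, on the scale log2(FPKM + 0.1), for all 10835 genes whose FPKM averaged 1 or more, and a gene was called at a Benjamini-Hochberg adjusted p under 0.05. All 10 genes passed that minimum, which was taken over all 18 libraries.

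The urea cycle turns toxic ammonia into urea for excretion, and in mammals the full cycle runs in the liver. Hepatocytes near the portal vein carry the cycle and release ammonia from glutamine, while a thin layer of hepatocytes around the central vein takes up the remaining ammonia to make glutamine. Carbamoyl phosphate and citrulline are made in mitochondria, argininosuccinate and arginine in the cytosol, and carriers link both compartments.

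In *Gpr180*KO livers *Asl*, which splits argininosuccinate into arginine and fumarate, was the 1 gene of the 10 that was called, with a mean of 242 ± 40.5 FPKM (SD, n = 9) against 174 ± 23.1 FPKM (SD, n = 9) in wild-type livers. *Gls2*, the liver glutaminase, had the next lowest p and narrowly missed the threshold. No gene of the 10 was called lower. Among all genes tested, 0.452% were called higher and 4.28% lower in *Gpr180*KO livers. The log2 difference was above 0 for 9 of the 10 genes and below 0 for *Glud1*, with a median of 0.26, beside a median of -0.13 over all genes tested. After scaling libraries by median of ratios, which moved the median of all genes to 0.02, the median of the 10 genes was 0.41, and *Otc*, *Asl* and *Gls2* were called higher, where 1.35% of all genes were called higher and 1.36% lower.

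**Figure D1:**
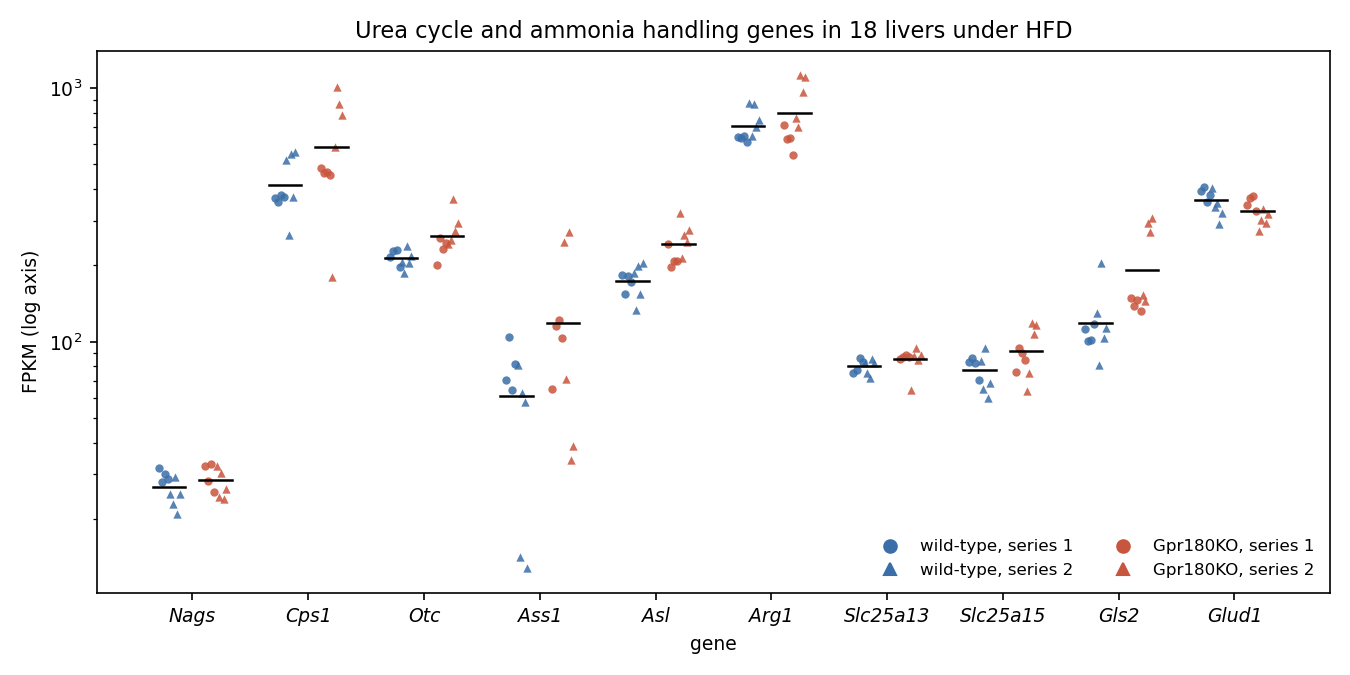
FPKM (log axis) of the 10 genes in each liver, wild-type in blue and *Gpr180*KO in red, circles for series 1 and triangles for series 2, with black lines at the group means (n = 9). *Asl* shows the clearest separation, with 8 *Gpr180*KO livers above the highest wild-type liver, and *Ass1* the widest scatter.

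The targeted gene, *Gpr180*, was at 4.46 to 9.24 FPKM in wild-type and 0.876 to 1.99 FPKM in *Gpr180*KO livers, with no overlap (exact permutation test, two-sided, p = 4.11e-05, which is the smallest possible with 9 against 9 libraries). Relative depth, estimated from the steps between low FPKM values, was 60.8 to 100% of the deepest library in wild-type and 44.3 to 93.5% in *Gpr180*KO livers. The estimate is rough, since it rests on the most common ratio to library W317, shared by 6.86 to 14.5% of low genes. The hepatocyte markers *Ttr* and *Apoa1* had at least 3153 and 6268 FPKM in every library. The library KO51 of the *Gpr180*KO group stood apart. In it the longest 25% of transcripts was lower, relative to the shortest 25%, by a median log2 difference of -1.40 from the median of its genotype, while the other 17 libraries lay between -0.08 and 0.14. *Cps1*, with the longest transcript of the 10 at 5555 bases, *Slc25a13*, *Slc25a15* and *Glud1* were lowest in KO51 among the *Gpr180*KO livers, so values that rest on this library are given with and without it.

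**Figure D2:**
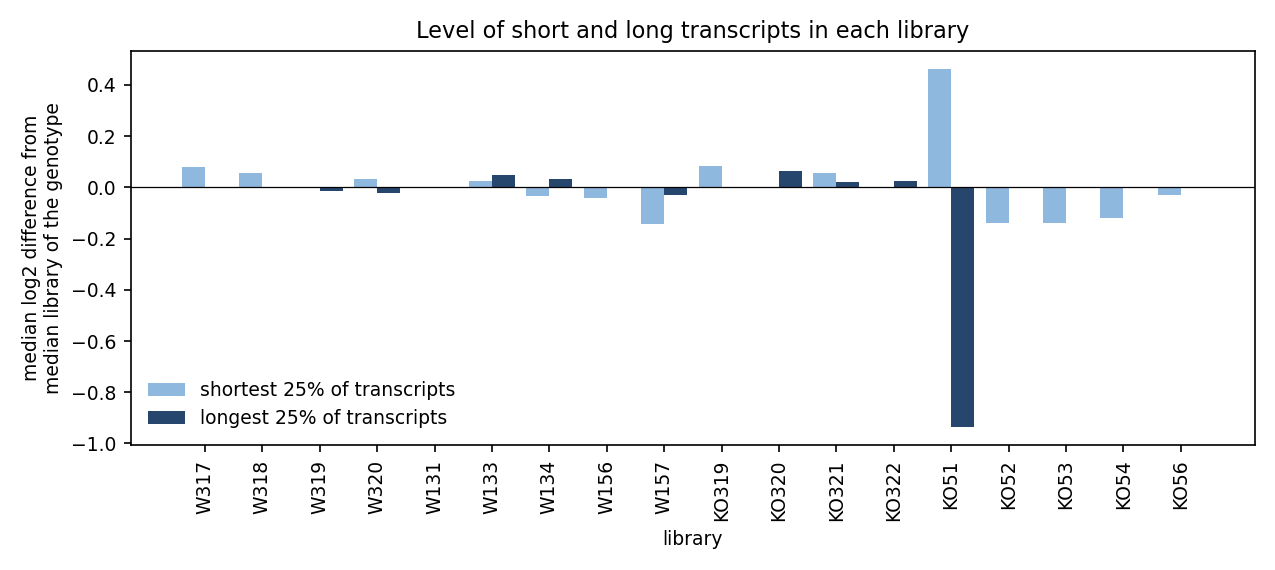
Median log2 difference from the median library of the same genotype for the shortest 25% (light bars) and the longest 25% (dark bars) of transcripts in each library. KO51 is the only library in which long transcripts fell away, to -0.94, while its short transcripts were at 0.46.

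The entry enzymes of the cycle differed in how they varied. *Nags* makes N-acetylglutamate, the activator without which CPS1 does not work, and lies on chr11:102145513-102149528 (GRCm38, GENCODE M21). It was the least abundant of the 10, at 20.9 to 31.8 FPKM (median 28.0) in wild-type and 24.0 to 33.0 FPKM (median 28.3) in *Gpr180*KO livers. The groups overlapped almost fully, with a log2 difference of 0.09 ± 0.09 (SE, limma adjusted p = 0.588). A share of 18.99% of the 75-base words of the *Nags* transcript also lies in an antisense transcript, *Gm11586*, and strand use in the library counting is not given in the sources used here.

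*Cps1*, which makes carbamoyl phosphate from ammonia and controls entry into the cycle, lies on chr1:67122426-67231267. Wild-type livers had 265 to 559 FPKM (median 371) and *Gpr180*KO livers 180 to 1013 FPKM (median 483). In series 1 the groups did not overlap, with 356, 370, 371 and 380 FPKM in wild-type and 454, 461, 468 and 483 FPKM in *Gpr180*KO livers. The share of all genes that separated fully in series 1 was not counted, and 2638 of 10835 genes had an unadjusted limma p under 0.05 there. In series 2 the wild-type livers had 265, 371, 520, 548 and 559 FPKM, and the *Gpr180*KO livers had 180 (KO51), 584, 784, 863 and 1013 FPKM. Thus 4 of 5 *Gpr180*KO livers of series 2 exceeded every wild-type liver and KO51 was below all of them. Over all libraries the log2 difference was 0.40 ± 0.25 (SE, limma adjusted p = 0.350). Without KO51 it was 0.59 ± 0.19 (SE, adjusted p = 0.0591), and in series 1 alone 0.34 ± 0.04 (SE, adjusted p = 0.0176). Series 2 alone, which holds KO51, gave 0.44 ± 0.44 (SE, adjusted p = 0.574).

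*Otc*, which joins carbamoyl phosphate to ornithine to give citrulline, lies on chromosome X from 10252230 to 10321024. It had 187 to 238 FPKM (median 216) in wild-type and 201 to 365 FPKM (median 251) in *Gpr180*KO livers, and 7 *Gpr180*KO livers exceeded the highest wild-type liver. The log2 difference was 0.28 ± 0.09 (SE, limma adjusted p = 0.0821). The call depended on scaling, since median-of-ratios scaling gave 0.43 ± 0.11 (SE, adjusted p = 0.0436). Series 1 contributed little, with means of 218 ± 15.5 and 233 ± 23.5 FPKM (SD, n = 4 each), while series 2 had 211 ± 18.9 and 285 ± 48.7 FPKM (SD, n = 5 each).

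*Ass1*, which condenses citrulline with aspartate and is the cytosolic entry of the cycle, could not be read from its own row. The tables list a second gene name, *Gm5424*, at chr2:31470307-31520629, inside the *Ass1* gene at chr2:31470270-31520670. GENCODE instead places *Gm5424* as a processed pseudogene, an intronless copy of *Ass1*, at chr10:62071123-62072362. Its 1240 bases align without a gap to the *Ass1* transcript, with 1234 identical bases (99.52%) and 6 differences in the 1239 bases of the *Ass1* coding sequence. Of the 75-base words of the *Ass1* transcript, 46.92% occur unchanged in *Gm5424*, 75 bases being the read length. The sequences that follow, from the *Ass1* transcript on GRCm38 (plus strand) at chr2:31488578-31488652 in exon 7 and from its match in *Gm5424*, show how alike the genes are over the length of a read. They have 1 difference, marked by the capital letter, and no window of this length that lies inside 1 coding exon differs by more.
Ass1, exon 7: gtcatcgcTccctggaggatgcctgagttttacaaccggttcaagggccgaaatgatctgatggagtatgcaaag
Gm5424, exon 7 match: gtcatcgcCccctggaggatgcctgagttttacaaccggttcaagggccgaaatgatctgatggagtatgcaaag

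The row named *Gm5424* held nearly all of the signal at the locus. It had 1144 to 2179 FPKM in wild-type and 1376 to 3333 FPKM in *Gpr180*KO livers, and the tables give it the status LOWDATA in all 18 libraries, while no row of the 10 genes carries that status. The row named *Ass1* held 0.701 to 13.5% of the sum of both rows (median 4.60%). The highest share was that of KO51, and the next was 9.47% in KO53. Within the wild-type group the *Ass1* row ranged 8.16-fold, from 12.8 FPKM in W157 to 105 FPKM in W318, and across all libraries it ranged 21.2-fold, whereas the sum ranged 2.91-fold. The *Ass1* row gave a log2 difference of 0.91 ± 0.46 (SE, limma adjusted p = 0.250), and the *Gm5424* row 0.40 ± 0.18 (SE, adjusted p = 0.184). The sum had 1158 to 2241 FPKM (median 1421) in wild-type and 1479 to 3372 FPKM (median 1810) in *Gpr180*KO livers, and 3 *Gpr180*KO livers exceeded every wild-type liver. Its log2 difference was 0.43 ± 0.17 (SE, adjusted p = 0.133), with adjusted p = 0.0481 when the series was a term of the fit. Without KO51 the sum gave 0.45 ± 0.18 (SE, adjusted p = 0.122) and the *Ass1* row 0.73 ± 0.46 (SE, adjusted p = 0.349). The sum was computed after the values were seen.

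**Figure D3:**
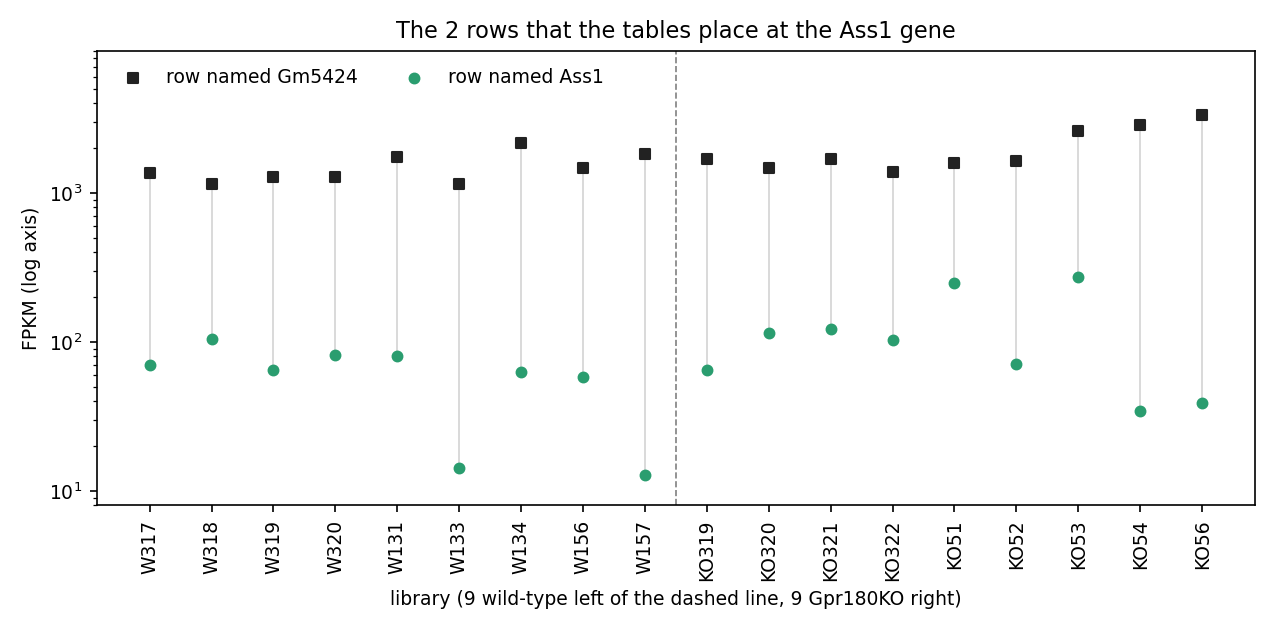
FPKM (log axis) of the rows named *Ass1* (green circles) and *Gm5424* (black squares) in each library, joined by a grey line. The *Gm5424* row lies at 1144 FPKM or more in every library, and the *Ass1* row is far below it, with 12.8 and 14.1 FPKM in 2 wild-type libraries.

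*Asl* was the gene of the cycle with the clearest difference. It lies on chr5:130011258-130024381, and no 75-base word of its transcript was found in another gene's transcripts. The wild-type livers had 133.3 to 204 FPKM (median 182) and the *Gpr180*KO livers 197 to 321 FPKM (median 242). Of the *Gpr180*KO livers, 8 exceeded the highest wild-type liver, and 7 wild-type livers were below the lowest *Gpr180*KO liver. The log2 difference was 0.47 ± 0.10 (SE, limma adjusted p = 0.0175), a ratio of means of 1.39. The highest value was that of KO51, and without this library the difference was 0.41 ± 0.09 (SE, adjusted p = 0.0173). *Asl* was called in each of the 18 fits that left out a library, with adjusted p between 0.00764 and 0.0431. Within series 1 the log2 difference was 0.31 ± 0.08 (SE, adjusted p = 0.0595) and within series 2 it was 0.60 ± 0.15 (SE, adjusted p = 0.108), so the sign held in both series and the call in neither.

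*Arg1*, which cleaves arginine to urea and ornithine and closes the cycle, lies on chr10:24915207-24927470 and was the most abundant of the 10 as listed by row. It had 614 to 871 FPKM (median 648) in wild-type and 543 to 1121 FPKM (median 717) in *Gpr180*KO livers. The groups overlapped broadly, and the log2 difference was 0.14 ± 0.13 (SE, limma adjusted p = 0.547). It was 0.07 without KO53 and 0.08 without KO56. In series 1 it was -0.02 ± 0.08 (SE) and in series 2 0.27 ± 0.16 (SE). The 3 livers above the wild-type range were KO53, KO54 and KO56, with 1121, 967 and 1102 FPKM.

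The mitochondrial carriers showed small differences. *Slc25a15*, the ornithine carrier ORC1 that exchanges cytosolic ornithine for citrulline, lies on chr8:22375550-22398621. It had 60.0 to 94.1 FPKM (median 82.2) in wild-type and 64.0 to 119 FPKM (median 90.6) in *Gpr180*KO livers, a log2 difference of 0.24 ± 0.12 (SE, limma adjusted p = 0.253). *Slc25a13*, the aspartate/glutamate carrier citrin that supplies aspartate for ASS1, lies on chr6:6041218-6217304. It had 72.1 to 86.1 FPKM (median 82.3) in wild-type and 64.7 to 94.5 FPKM (median 87.5) in *Gpr180*KO livers, a log2 difference of 0.09 ± 0.07 (SE, adjusted p = 0.444). Of the *Gpr180*KO livers, 8 had 84.7 to 94.5 FPKM of *Slc25a13*, and KO51 had 64.7 FPKM. Without KO51 the log2 difference was 0.14 ± 0.05 (SE, adjusted p = 0.0737) for *Slc25a13* and 0.30 ± 0.11 (SE, adjusted p = 0.104) for *Slc25a15*. Without KO51 and with median-of-ratios scaling, both carriers were called higher (*Slc25a15* 0.43 ± 0.12, SE, adjusted p = 0.0473; *Slc25a13* 0.27 ± 0.06, SE, adjusted p = 0.0290), beside *Otc*, *Asl* and *Gls2*, where 2.48% of all genes were called higher.

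The enzymes that feed ammonia into the cycle gave unlike values. *Gls2*, which releases ammonia from glutamine in periportal hepatocytes, lies on chr10:128194635-128210004. Wild-type livers had 81.0 to 204 FPKM (median 113) and *Gpr180*KO livers 132 to 307 FPKM (median 149). All wild-type livers but W134 were below the lowest *Gpr180*KO liver, and 3 *Gpr180*KO livers, KO53, KO54 and KO56, with 293, 271 and 307 FPKM, exceeded W134. The log2 difference was 0.66 ± 0.19 (SE, limma adjusted p = 0.0527), which median-of-ratios scaling moved to 0.81 ± 0.21 (SE, adjusted p = 0.0434). In series 1 the groups did not overlap, at 101 to 118 FPKM in wild-type and 132 to 149 FPKM in *Gpr180*KO livers. The log2 difference there was 0.38 ± 0.07 (SE, adjusted p = 0.0301). As for *Cps1*, the share of all genes that separated fully in series 1 was not counted. In series 2 the groups overlapped through W134, with a log2 difference of 0.88 ± 0.29 (SE, adjusted p = 0.162). *Glud1*, which releases ammonia from glutamate and can run in reverse, lies on chr14:34310727-34345033. It had 292 to 409 FPKM (median 357) in wild-type and 274 to 375 FPKM (median 329) in *Gpr180*KO livers. Its log2 difference of -0.14 ± 0.08 (SE, adjusted p = 0.311) was close to the median of all genes, was -0.11 ± 0.07 (SE, adjusted p = 0.375) without KO51, and became 0.01 ± 0.07 (SE, adjusted p = 0.949) with median-of-ratios scaling, so the data give *Glud1* no direction.

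**Figure D4:**
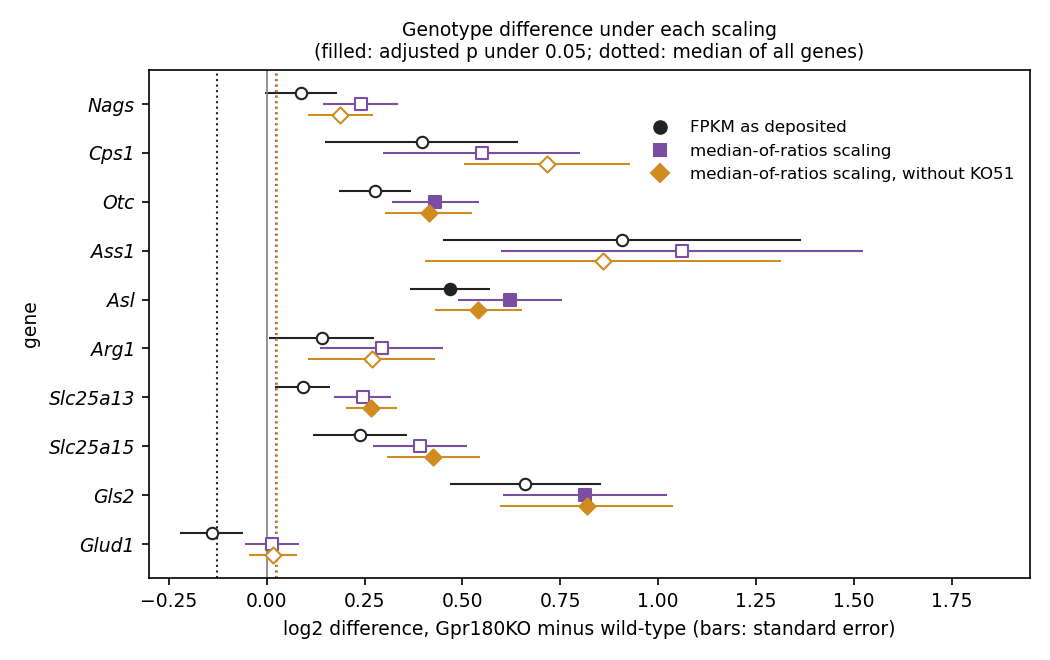
Log2 difference, *Gpr180*KO minus wild-type, with its SE (bars) for each gene from FPKM as deposited (black), after median-of-ratios scaling (purple), and after that scaling without KO51 (orange). Filled symbols have adjusted p under 0.05, and dotted lines mark the median of all genes tested. *Asl* is filled in all 3 fits, *Otc* and *Gls2* in the latter 2, and *Glud1* lies near the dotted lines.

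The series mattered for the number of calls. With series as a term of the fit, *Otc*, *Asl* and *Gls2* were called higher and none lower, where 1.13% of all genes were called higher and 9.52% lower. In series 1 alone *Cps1* and *Gls2* were called higher (0.831% of all genes), and in series 2 alone no gene of the 10 and no gene at all was called higher (0.0%), although 2019 of the 10835 genes had an unadjusted p under 0.05 there. The interaction of genotype with series, tested with limma, called none of the 10 and none of all genes (0.0%), with 833 genes but none of the 10 at an unadjusted p under 0.05. Its largest value among the 10 was that of the *Ass1* row, 1.05 ± 0.89 (SE, adjusted p = 0.812). For *Otc* it was 0.32 ± 0.16 (SE, adjusted p = 0.667).

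Ordered by mean FPKM over the 18 libraries, the rows ran from *Arg1* (752) over *Cps1* (502), *Glud1* (344), *Otc* (238), *Asl* (208), *Gls2* (155), *Ass1* (89.9), *Slc25a15* (84.6) and *Slc25a13* (82.8) to *Nags* (27.7). *Arg1* exceeded *Cps1* in 18 of 18 libraries and *Slc25a13* exceeded *Nags* in 18 of 18. *Cps1* exceeded *Glud1* in 13 of 18, *Asl* exceeded *Gls2* in 14, *Ass1* exceeded *Slc25a15* in 7, and *Slc25a15* exceeded *Slc25a13* in 9, so these neighbours did not keep 1 order. The sum of the rows named *Ass1* and *Gm5424* would stand above *Arg1*.

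Some of the 10 genes varied together among livers of 1 genotype and others did not. After subtraction of the mean of each genotype and series, the Pearson correlation of log2(FPKM + 0.1) over the 18 libraries was 0.87 between *Arg1* and *Gls2*, 0.83 between *Gls2* and *Slc25a15*, and 0.93 between *Gls2* and the *Gm5424* row. It was -0.45 between *Nags* and *Slc25a13* and -0.34 between *Asl* and *Slc25a13*. Both rested largely on KO51, since without it they were -0.24 and -0.05. *Asl* and *Cps1* had a correlation of 0.00, and 0.59 without KO51. The *Ass1* row correlated with the *Gm5424* row at -0.15, and at 0.02 without KO51. Of all genes tested, those most like *Cps1* included *Dbt* (0.96), *Eprs* (0.95), *Gm4788* (0.95) and *Setdb1* (0.94), which fell to between 0.83 and 0.88 without KO51. Those most like *Arg1* were *Herpud1* (0.92), *Zfp750* (0.90), *Cth* (0.89), *Proser2* (0.88) and *Gm5424* (0.87). These correlations are descriptions over libraries that differ in depth, with KO51 set apart by transcript length.

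A wider list of 20 genes covered glutamine synthesis, ammonium and amino acid transport, bicarbonate supply and ornithine use, and 16 of them reached the minimum. None was called higher and 2 were called lower, among them *Rhbg*, where 0.452% of all genes were called higher and 4.28% lower. The median log2 difference of the 16 was 0.05, beside -0.13 over all genes tested. *Rhbg*, an ammonium transporter of pericentral hepatocytes, had 2.79 to 11.7 FPKM (median 6.28) in wild-type and 1.46 to 5.94 FPKM (median 3.62) in *Gpr180*KO livers, a log2 difference of -0.95 ± 0.27 (SE, limma adjusted p = 0.0472). With median-of-ratios scaling none of the list was called, and *Rhbg* had -0.80 ± 0.25 (SE, adjusted p = 0.0947). *Rhbg* was called in 5 of the 18 fits that left out a library (without W134, W157, KO321, KO322 or KO51), and its adjusted p over the 18 fits lay between 0.0232 and 0.104.

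*Glul*, the glutamine synthetase of the hepatocytes around the central vein, had 263 to 762 FPKM (median 603) in wild-type and 188 to 571 FPKM (median 316.6) in *Gpr180*KO livers. Its log2 difference was -0.68 ± 0.25 (SE, limma adjusted p = 0.114). In series 1 it had 627 ± 52.5 and 540 ± 34.8 FPKM (SD, n = 4 each), and in series 2 it had 519 ± 189 and 241 ± 51.2 FPKM (SD, n = 5 each). With series as a term of the fit *Glul* was called lower (adjusted p = 0.0222), but not with median-of-ratios scaling added to that fit (adjusted p = 0.0812) or used alone (adjusted p = 0.216), nor with weights per library (adjusted p = 0.193). *Oat*, which passes ornithine toward glutamate, had 566 ± 167 and 562 ± 166 FPKM (SD, n = 9 each, adjusted p = 0.949). *Slc25a12*, the other aspartate/glutamate carrier, had 5.27 ± 0.54 and 4.35 ± 0.43 FPKM (SD, n = 9 each, limma adjusted p = 0.0565). *Slc7a2*, an arginine transporter, had 57.7 ± 13.7 and 90.4 ± 46.4 FPKM (SD, n = 9 each, adjusted p = 0.262). *Car5a*, the mitochondrial carbonic anhydrase that supplies bicarbonate to CPS1, had 51.3 ± 11.2 and 56.1 ± 10.04 FPKM (SD, n = 9 each, adjusted p = 0.557). *Sirt5*, a mitochondrial deacylase that acts on CPS1, had 11.7 ± 1.42 and 10.8 ± 3.08 FPKM (SD, n = 9 each, adjusted p = 0.517). *Arg2*, the mitochondrial arginase, stayed below 0.5 FPKM in every library and was not tested.

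Transcription factors and receptors known to act on urea cycle genes did not differ detectably. None of 14 was called, where 0.452% of all genes were called higher and 4.28% lower. None had an unadjusted limma p under 0.05, as 2403 of all 10835 genes had. Their median log2 difference was -0.03, beside -0.13 over all genes tested. With so few genes called, 0 of 14 says little about this list. The nuclear receptor *Hnf4a* had 119 ± 17.1 and 112 ± 21.6 FPKM (SD, n = 9 each, limma adjusted p = 0.607). *Cebpa* had 92.3 ± 9.63 and 87.6 ± 15.1 FPKM (SD, n = 9 each, adjusted p = 0.605), and the glucagon receptor gene *Gcgr* had 110 ± 12.4 and 121 ± 27.4 FPKM (SD, n = 9 each, adjusted p = 0.614).

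Other genes of the periportal and pericentral zones were set beside these values. Of 9 periportal genes, *Hal* and *Sds* were called higher and *Hsd17b13* lower, where 0.452% of all genes were called higher and 4.28% lower. *Hal*, the histidine ammonia lyase that releases ammonia from histidine, had 44.9 to 98.1 FPKM in wild-type and 89.0 to 162 FPKM in *Gpr180*KO livers, a log2 difference of 0.77 ± 0.15 (SE, limma adjusted p = 0.0132). *Sds*, the serine dehydratase that releases ammonia from serine, had 51.4 to 105 FPKM and 72.0 to 171 FPKM, a log2 difference of 0.79 ± 0.17 (SE, adjusted p = 0.0169). *Hsd17b13*, a lipid droplet protein gene, had a log2 difference of -0.54 ± 0.11 (SE, adjusted p = 0.0154). *Pck1*, a gene of gluconeogenesis, had 0.71 ± 0.22 (SE, adjusted p = 0.0613). With median-of-ratios scaling 3 genes of the list were called higher and 0 lower, where 1.35% of all genes were called higher and 1.36% lower. In that fit *Hsd17b13* lost its call (adjusted p = 0.0605) and *Pck1* gained one (0.86 ± 0.23, SE, adjusted p = 0.0471). Of 10 pericentral genes, *Rhbg* was called lower and *Cyp1a2* higher (0.42 ± 0.12, SE, adjusted p = 0.0404). The log2 difference was below 0 for 8 of the 10 pericentral genes (median -0.32) and for 3 of the 9 periportal genes (median 0.21). Over all genes tested the median was -0.13, so most genes lay below 0. With median-of-ratios scaling the pericentral and periportal medians were -0.17 and 0.36, beside 0.02 over all genes. The summed level of the periportal list was 1805 to 3405 FPKM in wild-type and 2145 to 3758 FPKM in *Gpr180*KO livers. That of the pericentral list was 2813 to 6205 and 4472 to 5845 FPKM, mostly from *Cyp2e1* (means of 3772 and 3884 FPKM). In whole liver, fewer cells of a type and less RNA per cell cannot be told apart.

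**Figure D5:**
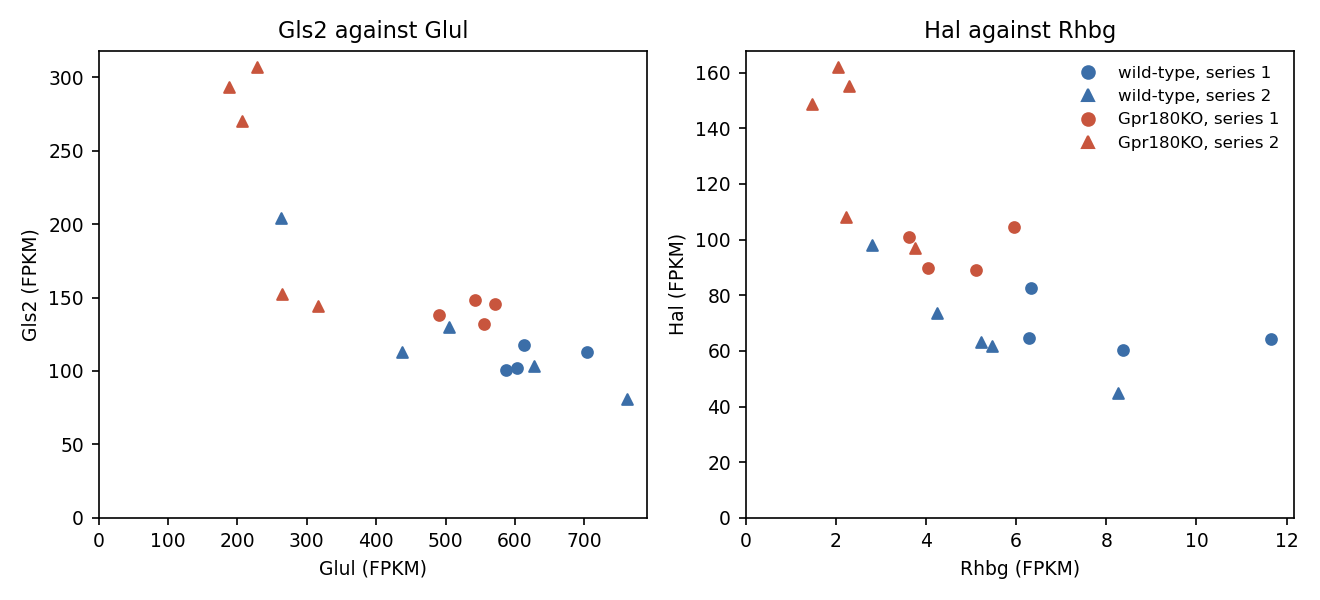
FPKM of *Gls2* against *Glul* (left) and of *Hal* against *Rhbg* (right) in each liver, wild-type in blue, *Gpr180*KO in red, circles for series 1 and triangles for series 2. KO53, KO54 and KO56 lie at the upper left of both plots, and the wild-type liver nearest to them is W134, with 204 FPKM of *Gls2* and 263 FPKM of *Glul*.

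Within a library, the log2 ratio of *Gls2* to *Glul* does not depend on scaling between libraries. It was -3.23 to -0.36 (mean -2.25) in wild-type and -2.07 to 0.64 (mean -0.91) in *Gpr180*KO livers, and 3 *Gpr180*KO livers exceeded every wild-type liver. The ratio of *Asl* to *Arg1*, the enzymes before and after arginine, was -2.27 to -1.82 (mean -2.02) in wild-type and -2.09 to -1.24 (mean -1.69) in *Gpr180*KO livers on the log2 scale, and 6 *Gpr180*KO livers exceeded every wild-type liver. The highest of these was KO51, without which the mean was -1.75, the highest value was -1.39 and 5 of 8 livers exceeded every wild-type liver. Both ratios were chosen after their genes' values were seen and were not tested.

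Every marker of a non-parenchymal or biliary cell that was called was lower in *Gpr180*KO livers. Most calls over all genes were lower too, with 4.28% of genes called lower and 0.452% higher. Of 7 stellate cell genes 4 were called lower (*Col1a1*, *Col3a1*, *Pdgfrb* and *Dcn*). *Lrat*, *Des* and *Reln* were not called (limma adjusted p = 0.446, 0.812 and 0.0657). The list summed to 141 to 274 FPKM in wild-type and 78.3 to 138 FPKM in *Gpr180*KO livers, ranges that nearly touched but did not overlap. Most of this sum came from *Dcn*, which by itself had no overlap (116 to 196 and 63.8 to 103 FPKM). The share of all genes without overlap between the groups was not counted. Of 8 macrophage genes *Cd68* was called lower, with summed levels of 183 to 484 and 219 to 313 FPKM. Of 6 endothelial genes none was called (78.9 to 124 and 71.9 to 112 FPKM). Of the cholangiocyte list *Sox9* and *Spp1* were called lower, and its sum of 40.8 to 226 and 17.4 to 51.0 FPKM came mostly from *Spp1*. Its genes *Krt19*, *Krt7* and *Epcam* had group means under 1 FPKM. With median-of-ratios scaling 4 stellate, 1 macrophage and 1 cholangiocyte gene were called lower, where 1.36% of all genes were called lower. The adipocyte marker *Plin1* was listed at 0 in all 18 libraries, and no gene of the lymphocyte list (sums of 4.18 to 10.2 and 2.85 to 6.12 FPKM), the adipocyte list (17.1 to 75.7 and 1.65 to 59.1 FPKM, nearly all from *Cidec*) or the enterocyte and pancreas list (206 to 333 and 204 to 456 FPKM) was called. The sum of this last list came nearly all from *Fabp2* (means of 266 and 308 FPKM), and its gene *Prss1* was listed at 0 in all 18 libraries. The hepatocyte list summed to 20138 to 24378 and 21196 to 35776 FPKM, with 1 of 7 genes tested, *Cyp3a11*, called lower. The part of these differences in the urea cycle values was not tested.

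RefSeq promoter sequences of 300 bases on GRCm38 were matched for 6 of the 10 genes, not for *Cps1*, *Asl*, *Arg1* and *Gls2*. On either strand, the cAMP response half-site TGACG was found in *Nags* and *Slc25a13* (20.81% of 32851 promoters hold it) and CCAAT in *Slc25a13* (37.41%). TATAAA (13.62%) and the glucocorticoid half-site TGTTCT (18.97%) were found in none of the 6.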

How the data were processed

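Poly(A) RNA of 18 livers was sequenced as 75-base single reads. The authors aligned reads to mm10 (GRCm38) with the TopHat Alignment application and deposited 1 table of FPKM values per mouse. FPKM values are described as output of that application, and the gene annotation and strand setting behind them are not given in the sources used here. The FPKM values that were deposited include 190 failed estimates in 24 genes, all listed at 0, which were left out. No failed value was in the 10 genes. In 123 of their 180 values the FPKM lies above the interval the tables give for it. The intervals were used in 1 alternative, with their midpoint as the value. No counts are in the tables, so the read depth behind each value is unknown.

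Rows that share a symbol were summed. For genes whose FPKM averaged 1 or more, limma (version 3.58.1, R 4.3.3; lmFit and eBayes with trend, two-sided) was run on the scale log2(FPKM + 0.1), and p-values were adjusted by Benjamini-Hochberg across all of them. The pseudocount makes the fold change of low genes too small. Groups came from the genotype labels. The p-values measure the spread between mice. The fit was tested on simulated data. The named genes were the 10, *Gpr180*, called genes of the fixed lists and 10 genes fixed by role, with the 5 genes most like *Cps1* and *Arg1*, and some of these are not reported here. The 10 genes and all lists were chosen with earlier results of these data known. Alternatives were pseudocounts, FPKM minimums, scalings, series as a block or alone, robust eBayes, weights per library and each library left out. Positions are from GENCODE M21. Tables were handled with Python 3.11.15 and pandas 2.3.3.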

Additional observations from a re-analysis of the deposited data

Results flagged for a closer look

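In 26 groups of 9 livers (the 10 genes, *Gpr180*, the *Gm5424* row and *Glul* in each genotype, on the log2 scale), the gap between an extreme liver and its nearest neighbour, divided by the range of the group, was compared with Dixon's critical value of 0.493. Chance flags about 1 in 20 groups. For *Cps1* in *Gpr180*KO livers the gap of the lowest liver, KO51 at 180 FPKM, was 0.535 of the range. For *Slc25a13* in *Gpr180*KO livers the gap of the lowest liver, again KO51 at 64.7 FPKM, was 0.710 of the range. KO51 is also the library in which long transcripts were low, and the part of this in both values was not tested.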

How the results depend on the processing

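The count of urea cycle genes called higher, 1 of the 10 in the reported fit, was 2 with an FPKM minimum of 0.1 and in series 1 alone, 0 in series 2 alone, 3 with median-of-ratios scaling or with series as a block, 4 with weights per library or with scaling and block together, and 5 without KO51 after median-of-ratios scaling, the last chosen after seeing the data. Leaving out each library gave 1 to 2, since *Gls2* was also called without W134, KO321, KO322 or KO51 and *Otc* without KO319. No setting called a gene of the 10 lower. Calls of higher genes over all 10835 genes moved too. They were 49 in the reported fit, 90 in series 1, 0 in series 2, 146 with median-of-ratios scaling and 122 with the block. Weights per library gave 170, scaling and block together 303, and median-of-ratios scaling without KO51 269. With an FPKM minimum of 0.1 there were 61 among 14016 genes. The sign of *Arg1* turned in series 1 (log2 difference -0.017) and with weights per library (-0.0019), and that of *Glud1* with median-of-ratios scaling (0.0125), with that scaling and the block together (0.0125) and with that scaling without KO51 (0.0156). Calls in the wider ammonia list, 2 in the reported fit, were 0 with a minimum of 5, with median-of-ratios or 75th percentile scaling and in series 2, 1 with no minimum, with TPM and in series 1, 4 with the block, and 0 to 3 with a library left out. Regulators had 1 call (*Nr1i2*) with scaling and block together, and 0 to 0 with a library left out. Calls over all genes, 513 in the reported fit, were 837, 238 and 313 with a minimum of 0.1, 5 and none, 293 and 322 with median-of-ratios and 75th percentile scaling, 1153 with the block, 0 in series 2, 1331 with weights per library and 132 to 922 with a library left out, lowest without W133 and highest without W157. The causes were not tested. No paired analysis was possible because the labels pair no wild-type with a *Gpr180*KO mouse. Read depth per value is unknown and limits low genes such as *Rhbg*.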
